A study of Mus musculus with 6 samples.

Results

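The genes described here mark the mural cells of the heart, the smooth muscle cells of arteries and the pericytes of capillaries. They are 10 of the 21506 genes measured in left ventricle of sickle and control mice. The list was set by symbol: Acta2, Tagln, Cnn1, Myh11, Smtn and Lmod1 belong to the smooth muscle contractile apparatus, and Rgs5, Pdgfrb, Notch3 and Cspg4 are used as pericyte or mural cell markers. All 10 were measured. Smtn alone had 2 rows, of which the brighter was used.

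Total RNA from left ventricular tissue of 3 sickle and 3 control male mice was hybridised to 6 arrays, 1 per mouse. Mice of both groups carried Hbatm1(HBA)Tow, which puts human alpha-globin in place of mouse alpha-globin. The sickle mice were homozygous for Hbbtm2(HBG1,HBB*)Tow, which replaces mouse beta-globin by human gamma-globin and sickle beta-globin. The control mice were homozygous for Hbbtm3(HBG1,HBB)Tow, which instead brings human gamma-globin and normal beta-globin. Both groups were therefore globin knock-ins on a mixed B6;129 background, and neither was a wild-type mouse. The labels place all experiments at 10 to 14 weeks of age. They also describe electrocardiograms and tests of arrhythmia inducibility under isoflurane, without saying whether the mice of the arrays had undergone them. The series was designed around IL-18 in the cardiomyopathy of sickle disease.

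Mural cells wrap endothelial tubes. Smooth muscle cells of arteries and arterioles contract through a smooth muscle actin and myosin apparatus and so set vessel calibre. Their contractile genes are switched on by serum response factor (SRF) with its coactivator myocardin, which bind DNA at the CArG box. Pericytes sit on capillaries, are recruited through platelet-derived growth factor B (PDGF-B) from endothelium acting on the receptor encoded by Pdgfrb, and depend, like smooth muscle cells, on Notch signals from neighbouring endothelial cells. Activated fibroblasts can also carry smooth muscle actin, so Acta2 and Tagln are not specific to vessels.

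The upstream sequences of 7 of the 10 genes were found in the RefSeq promoter table (GRCm38.p6), and 2 are shown. They belong to Acta2 and Notch3, 2 of the 3 genes whose sickle arrays all lay above the control arrays. Each run is the 250 bases before the annotated start site, 5′ to 3′ on the strand of the gene. Acta2 lies on the minus strand at chr19:34255374-34255623 and Notch3 on the minus strand at chr17:32166891-32167140. Capitals mark matches to the CArG box with 1 G or C allowed in its A and T core.
Acta2: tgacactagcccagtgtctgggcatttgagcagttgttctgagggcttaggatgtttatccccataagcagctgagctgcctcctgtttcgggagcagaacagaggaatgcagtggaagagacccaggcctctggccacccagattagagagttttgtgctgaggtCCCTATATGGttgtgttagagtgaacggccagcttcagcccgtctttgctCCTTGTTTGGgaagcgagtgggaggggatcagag
Notch3: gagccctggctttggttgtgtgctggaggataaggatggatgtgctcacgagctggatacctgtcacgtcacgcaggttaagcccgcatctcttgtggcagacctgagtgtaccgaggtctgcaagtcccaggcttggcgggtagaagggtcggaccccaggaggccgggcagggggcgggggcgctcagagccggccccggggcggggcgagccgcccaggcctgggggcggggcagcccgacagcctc

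The Acta2 run held 2 such matches, at -84 to -75 and at -34 to -25 from the start site, and the other 6 promoters, that of Notch3 included, held none. Of the 32851 promoters of the table, 7.24% held this form in the same window. The strict CArG box, with A or T alone in the core, was in 1.47% of all promoters and in 0 of these 7. The motif CATTCC, the core bound by TEAD factors, was searched on both strands and was in Acta2, Smtn and Lmod1, against 12.6% of all promoters. The motif TGGGAA, the core bound by the Notch effector RBPJ, was in Acta2 and Smtn on either strand, against 21.6% of all promoters. In Acta2 the TGGGAA match at -27 to -22 overlapped the second CArG match. The Acta2 run was 53.6% G and C and the Notch3 run 68.8%. These matches describe letters in a window and say nothing of binding in these hearts.

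The comparison asked whether mural cell genes differ between ventricles exposed to sickle and to non-sickling human haemoglobin. The means of all 10 genes were higher in sickle, by small amounts. Acta2, Myh11 and Notch3 had the largest differences on the log2 scale, between 0.28 and 0.37, which is 1.22-fold to 1.29-fold, with Tagln just behind at 1.21-fold. They were also the genes in which every sickle array lay above every control array. None of the 10 passed the test, limma with Benjamini-Hochberg adjustment over all 21506 genes at 0.05; their adjusted p lay between 0.490 and 0.927. By that rule 0.181% of all genes were called.

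One array, sickle replicate 3, stood apart. It was the highest of the 6 arrays for 23.8% of all genes, against 13.4% to 16.6% for each other array, and for 8 of these 10 genes. The difference of each of the 10 genes is therefore given with and without it below. Without it, 0 of the 10 genes passed the adjustment (adjusted p 0.447 to 0.991), where 0.0976% of all genes did. Control replicate 3 stood apart in atrial genes: Sln reached 8.08 and Myl7 7.75, where the other 5 arrays ranged from 3.10 to 3.36 for Sln and from 4.31 to 4.78 for Myl7. Heart muscle genes shared by atrium and ventricle were high in all arrays, with the cardiac myosin gene Myh6 at 13.16 to 13.28 and troponin T gene Tnnt2 at 13.51 to 13.62. The labels give left ventricle for control replicate 3 too, and the source of its atrial values was not tested. Of the red cell genes, 9 of 9 measured were above control in every sickle array, where 7.61% of all genes were. The test was passed by 8 (5 of the 9 without sickle replicate 3), and by 0.181% of all genes. This list was also chosen with earlier results of these data known, so its counts are descriptive.

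Acta2 encodes smooth muscle alpha-actin, the thin filament of the contractile apparatus. It had 10.31, 10.55 and 10.44 in control replicates 1, 2 and 3, and 10.65, 10.76 and 10.99 in sickle replicates 1, 2 and 3. All 3 sickle arrays were above all 3 control arrays, with the widest gap in sickle replicate 3. The means were 10.43 ± 0.12 in control and 10.80 ± 0.17 in sickle (SD, n = 3), a difference of 0.37 ± 0.12 (SE) with a 95% interval of 0.09 to 0.65 and an adjusted p of 0.492 (limma). Without sickle replicate 3 the difference was 0.27 ± 0.11 (adjusted p = 0.524), and the groups still did not overlap.

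Myh11 encodes the smooth muscle myosin heavy chain, the motor that pulls on that actin and is a marker of differentiated smooth muscle. Control replicates 1, 2 and 3 had 8.11, 8.09 and 8.18, and sickle replicates 1, 2 and 3 had 8.50, 8.35 and 8.37. The highest array was sickle replicate 1, so the array that led for most of the other genes did not lead here. The means were 8.13 ± 0.04 and 8.41 ± 0.08 (SD, n = 3), 1.22-fold apart, with a difference of 0.28 ± 0.09 (SE; 95% interval 0.07 to 0.49; limma adjusted p = 0.490). Leaving out sickle replicate 3 gave 0.30 ± 0.10 (adjusted p = 0.447). Myh11 was the gene with the smallest p of the 10, both with and without that array.

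**Figure D1:**
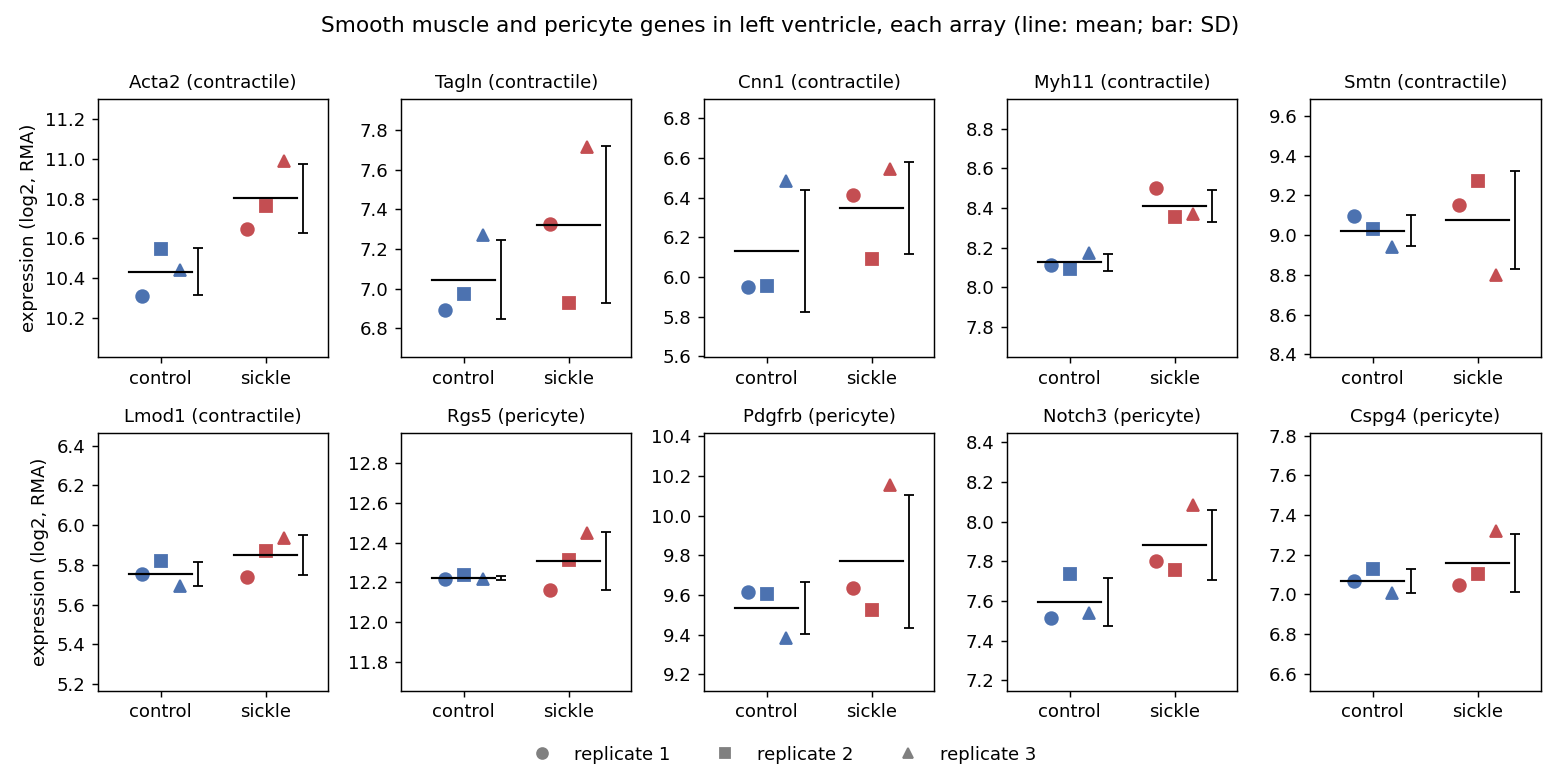
Expression of each of the 10 genes on the log2 scale (y axis, each panel spanning the same number of log2 units) in control and sickle ventricles (x axis). Symbols are arrays, lines are means and bars are SD (n = 3). The red symbols lie above all blue ones for Acta2, Myh11 and Notch3, and sickle replicate 3 (red triangle) is the lowest array for Smtn and the highest for 8 other genes.

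Tagln and Cnn1 encode transgelin (SM22) and calponin 1, related proteins that bind actin filaments in smooth muscle. Tagln had 6.89, 6.97 and 7.27 in control replicates 1, 2 and 3, and 7.32, 6.93 and 7.72 in sickle. Cnn1 had 5.95, 5.96 and 6.48 in control and 6.41, 6.09 and 6.54 in sickle. Both genes showed the same layout: control replicate 3 was above the other controls, sickle replicate 2 was the lowest sickle array, and the groups overlapped. The difference was 0.28 ± 0.20 for Tagln (SE; 95% interval -0.20 to 0.75; limma adjusted p = 0.708). It was 0.22 ± 0.18 for Cnn1 (-0.20 to 0.64; adjusted p = 0.741).

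Single arrays moved both values. Without sickle replicate 3 the difference was 0.08 for Tagln and 0.12 for Cnn1, and without sickle replicate 2 that of Tagln was 0.47. Without control replicate 3 the difference of Cnn1 was 0.40. Control replicate 3 was also the array with high atrial genes: the median level of the 5 atrial markers was 7.75 there and 4.57 to 5.02 in the other arrays. The part of those genes in the Tagln and Cnn1 values was not tested.

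Smtn and Lmod1 encode smoothelin, an actin-binding protein of contractile smooth muscle, and leiomodin 1, which nucleates actin filaments. Smtn had 9.10, 9.03 and 8.94 in control and 9.15, 9.27 and 8.80 in sickle replicates 1, 2 and 3. Sickle replicates 1 and 2 were the highest of the 6 arrays and sickle replicate 3 the lowest. Its difference was 0.05 ± 0.14 (SE; 95% interval -0.26 to 0.37; limma adjusted p = 0.927), 0.19 ± 0.10 without sickle replicate 3 (adjusted p = 0.618) and -0.05 without sickle replicate 2. A second Smtn row, dimmer at 5.13 ± 0.02 in control and 5.16 ± 0.07 in sickle (SD, n = 3), differed by 0.03. Lmod1 had 5.76, 5.82 and 5.70 in control and 5.74, 5.87 and 5.94 in sickle, with overlapping groups. Its difference of 0.09 ± 0.10 (95% interval -0.13 to 0.32; adjusted p = 0.792) was smaller than its SE, and without sickle replicate 3 it was 0.05 ± 0.10 (adjusted p = 0.910).

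Among pericyte genes, Notch3, the Notch receptor of mural cells, had the largest difference. It had 7.51, 7.73 and 7.54 in control replicates 1, 2 and 3, and 7.80, 7.76 and 8.08 in sickle. All sickle arrays were above all control arrays, but control replicate 2 and sickle replicate 2 were close. The means were 7.59 ± 0.12 and 7.88 ± 0.18 (SD, n = 3), a difference of 0.29 ± 0.12 (SE; 95% interval 0.00 to 0.57; limma adjusted p = 0.574). Without sickle replicate 3 it was 0.18 ± 0.11 with an interval of -0.07 to 0.44 (adjusted p = 0.648).

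Pdgfrb encodes the PDGF receptor beta chain, through which pericytes are recruited. It had 9.62, 9.60 and 9.38 in control and 9.63, 9.52 and 10.15 in sickle. The difference of 0.24 ± 0.17 (SE; 95% interval -0.17 to 0.64; limma adjusted p = 0.707) came from 1 array: sickle replicate 3 was 0.62 above the control mean, and replicates 1 and 2 were 0.10 above and 0.01 below it. Without sickle replicate 3 the difference was 0.04 ± 0.11 (adjusted p = 0.933).

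Rgs5 encodes a regulator of G protein signalling abundant in pericytes, and Cspg4 encodes the NG2 proteoglycan of their surface. Rgs5 was nearly constant in control (12.22, 12.24 and 12.22) and spread on both sides of those values in sickle (12.16, 12.31 and 12.45). Its difference was 0.08 ± 0.10 (SE; 95% interval -0.15 to 0.32; limma adjusted p = 0.828). Cspg4 had 7.07, 7.13 and 7.01 in control and 7.04, 7.10 and 7.32 in sickle, a difference of 0.09 ± 0.11 (-0.16 to 0.33; adjusted p = 0.826). Without sickle replicate 3 these were 0.01 for both genes, with intervals of -0.21 to 0.24 for Rgs5 and -0.21 to 0.22 for Cspg4. The intervals still hold differences of either sign.

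**Figure D2:**
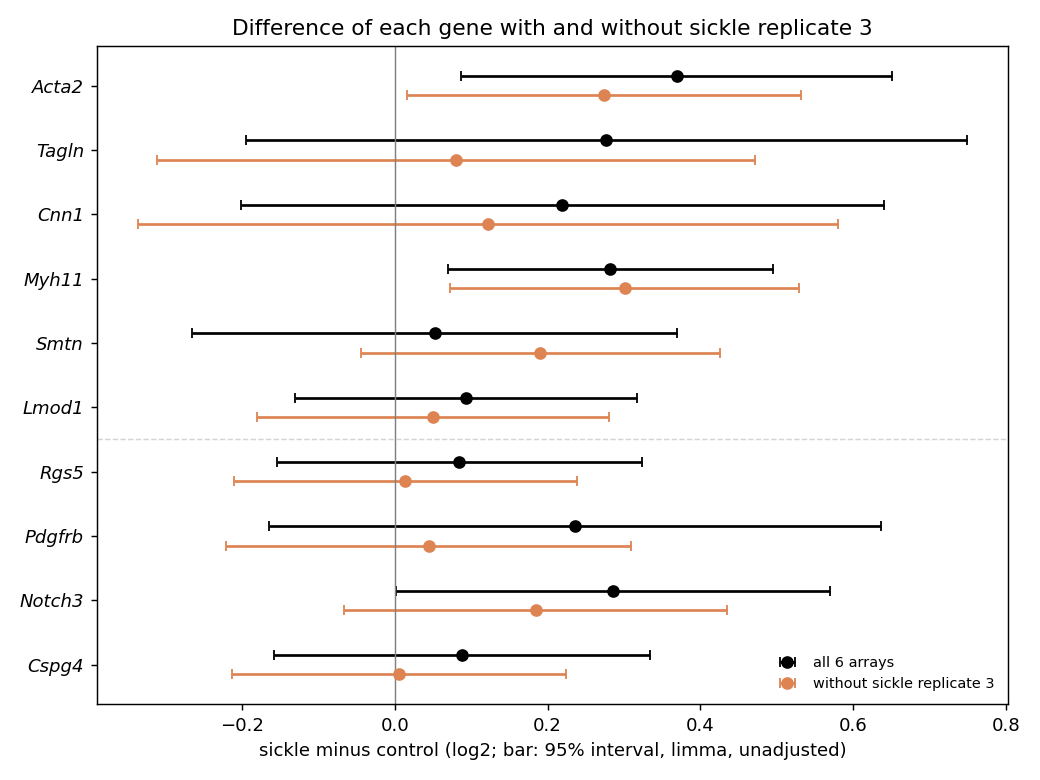
Sickle minus control difference of each gene on the log2 scale (x axis) with its 95% interval from limma, for all 6 arrays (black) and without sickle replicate 3 (orange). Myh11 and Acta2 keep intervals above 0 in both, and the pericyte genes Rgs5, Pdgfrb and Cspg4 move to between 0.01 and 0.04 without that array.

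As a group, 10 of 10 means were higher in sickle, where 48.4% of all genes were. The median difference was 0.23 over the 10 genes and -0.0067 over all genes. Groups did not overlap, with sickle above, for 3 of the 10, and this held for 7.61% of all genes. An unadjusted p under 0.05 in the direction of sickle was likewise reached by 3 of the 10, Acta2, Myh11 and Notch3, and by 4.30% of all genes. Without sickle replicate 3 the median was 0.10, against 0.0007 over all genes. All 10 means were still higher, as were 50.2% of all genes, though 4 of them by 0.05 or less. In that comparison the groups did not overlap for 4 of the 10, Acta2, Myh11, Smtn and Notch3, against 13.5% of all genes with sickle above, and 2 of the 10, Acta2 and Myh11, had an unadjusted p under 0.05, against 4.83% of all genes. The genes were listed with earlier results of these data known, so the counts are descriptive.

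The medians of the 6 contractile and the 4 pericyte genes had different layouts over the sickle arrays. Relative to the control mean, the median of the contractile genes was 0.25, 0.17 and 0.33 in sickle replicates 1, 2 and 3, all above the control arrays (-0.07 to 0.03). The median of the pericyte genes was 0.04, 0.06 and 0.37, against -0.06 to 0.06 in control, so only sickle replicate 3 stood clear. Single genes did not divide this way. Of the contractile genes, only Acta2 and Myh11 were above their control mean in all 3 sickle arrays. The pericyte gene Notch3 was too (0.21, 0.16 and 0.49). Every other gene of the 10 was above it in 2 of the 3. The median difference was 0.25 for contractile and 0.16 for pericyte genes, and 0.16 and 0.03 without that array. Whether the subsets differ was not tested. In ventricular tissue, more cells of a type and more RNA per cell cannot be told apart.

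Of 20 other smooth muscle contractile and cytoskeletal genes, 13 were higher and 7 lower in sickle, with a median difference of 0.01 and 0 past the test in either direction. Without sickle replicate 3, 10 of the 20 were higher and the median was -0.0001. Whether this list differs from the 6 contractile genes was not tested. Itga8, the integrin alpha-8 chain of smooth muscle, had the smallest p of the higher ones (0.39 ± 0.15, SE; limma adjusted p = 0.542), with 5.94, 5.97 and 6.06 in control and 6.70, 6.17 and 6.27 in sickle. Its difference was 0.45 without sickle replicate 3. Actg2, the smooth muscle gamma-actin, lay in the opposite direction to Acta2. It was dim, below the median level over all genes (5.68 to 5.71 per array). Actg2 had 5.28, 5.32 and 5.31 in control and 4.65, 4.75 and 5.05 in sickle, so that every sickle array was below every control array. Its difference was -0.49 ± 0.12 (limma adjusted p = 0.378), and -0.60 without sickle replicate 3. Itga8 and Actg2 were picked by the smallest p in their direction, so the lack of overlap is not separate evidence. Over all genes, groups did not overlap in either direction for 16%. Many genes of this list, such as Des and Tpm1, are also expressed by cardiomyocytes.

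The other actin genes bear on Acta2 because actins are closely related in sequence, and hybridisation between them was not tested. Actc1, the cardiac actin, had 13.48 to 13.51 in control and 13.39 to 13.45 in sickle, a difference of -0.06 ± 0.08 (SE; limma adjusted p = 0.844) in the opposite direction to Acta2, and of -0.04 without sickle replicate 3. Actg1, the cytoplasmic gamma-actin, differed by 0.25 ± 0.11 (adjusted p = 0.583; 0.26 without that array). Acta1, the skeletal actin, had 10.02, 10.69 and 10.62 in control and 10.69, 10.32 and 11.39 in sickle. Its difference was 0.36 ± 0.29 (limma adjusted p = 0.739), close to that of Acta2, and 0.06 without sickle replicate 3. Among myosin heavy chains, Myh9, of non-muscle cells, differed by 0.49 ± 0.15 (adjusted p = 0.473), and by 0.32 without sickle replicate 3. Myh6, of cardiac muscle, differed by -0.02 ± 0.09 (adjusted p = 0.956), and by 0.0028 without it. Myh7, also of cardiac muscle, had its highest value, 10.89, in sickle replicate 3. It differed by 0.92 ± 0.54 (limma adjusted p = 0.653), and by 0.33 without that array. Of 8 relatives of leiomodin, calponin, transgelin and smoothelin, 5 were higher. Cnn2, a calponin of non-muscle cells, had 8.57, 8.62 and 8.44 in control and 8.92, 8.88 and 9.33 in sickle (0.51 ± 0.14; adjusted p = 0.412; 0.36 without sickle replicate 3). Tagln3 differed by -0.07 ± 0.11, and by -0.02 without that array. None of the genes in these 3 lists passed.

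The list headed SRF and its coactivators had 6 measured genes: Srf, Myocd, Mrtfa, Mrtfb, Klf4 and Elk1. Its median difference was 0.06, with 5 genes higher (4 without sickle replicate 3) and 0 past the test. Klf4 and Elk1 are not coactivators of the myocardin family, so the count and median do not describe drivers of the contractile genes alone. Klf4 differed by 0.09 and Elk1 by 0.04, or by -0.20 and 0.06 without sickle replicate 3. Mrtfa, an SRF coactivator, had 6.43 to 6.47 in control and 6.48, 6.59 and 6.95 in sickle replicates 1, 2 and 3 (difference 0.23 ± 0.13, SE; limma adjusted p = 0.653), and without sickle replicate 3 it differed by 0.09. Myocd, the myocardin gene, also active in cardiomyocytes, differed by -0.36 ± 0.20 (adjusted p = 0.644) and had its lowest value, 9.33, in sickle replicate 3. Without that array the Myocd difference was -0.13.

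Of 17 other pericyte genes, 12 were higher and 5 lower in sickle, where 48.4% of all genes were higher. Without sickle replicate 3, 9 of the 17 were higher. The median was 0.16, or 0.02 without that array, and 0 genes passed the test. Mcam (CD146), an adhesion molecule of pericytes and endothelium, came closest. Its control arrays had 8.41, 8.43 and 8.22 and its sickle arrays 8.96, 9.00 and 9.10, well apart and even within sickle. The difference was 0.67 ± 0.10 (SE; limma adjusted p = 0.0877), and 0.63 without sickle replicate 3. Angpt1, angiopoietin 1, a ligand that mural cells and other cells of the heart supply to the endothelial receptor Tie2, was on the other side. It had 8.67, 9.35 and 9.17 in control and 7.46, 8.34 and 7.85 in sickle, 3 of 3 sickle arrays below all controls. The Angpt1 difference was -1.18 ± 0.25 (limma adjusted p = 0.270), and -1.17 without sickle replicate 3. Mcam and Angpt1 were picked by the smallest p in their direction, so the lack of overlap is not separate evidence. In either direction it held for 16% of all genes.

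The signals that reach mural cells were covered by lists of 5 PDGF and 15 Notch genes. Pdgfb, the ligand of Pdgfrb made by endothelium, had 8.32, 8.24 and 8.26 in control and 8.57, 8.74 and 8.84 in sickle, without overlap (0.44 ± 0.10, SE; limma adjusted p = 0.328). Leaving out sickle replicate 3 left its difference at 0.38, where that of the receptor Pdgfrb was 0.04. Pdgfc differed by -0.16 ± 0.29 (adjusted p = 0.889), and without sickle replicate 3, its highest array, by -0.52. Of the PDGF list 3 genes were higher and 2 lower, with 0 past the test. Pdgfb and Pdgfc were picked by the smallest p in their direction, so the lack of overlap in Pdgfb is not separate evidence.

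In the Notch list 13 genes were higher and 2 lower, where 48.4% of all genes were higher. Without sickle replicate 3, 11 of the 15 were higher. The median was 0.16 (0.13 without that array), with 0 past the test. Nrarp, a Notch target that feeds back on the pathway, had 6.86, 6.67 and 6.73 in control and 7.09, 7.39 and 7.13 in sickle (0.45 ± 0.11, SE; limma adjusted p = 0.387; 0.49 without sickle replicate 3). Hey2, another target, was on the opposite side, at 7.27, 7.53 and 7.30 in control and 7.26, 7.06 and 7.14 in sickle (-0.22 ± 0.11; adjusted p = 0.619; -0.21 without that array). In both genes the groups did not overlap, which in either direction held for 16% of all genes. Both were picked by the smallest p in their direction, so the lack of overlap is not separate evidence.

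**Figure D3:**
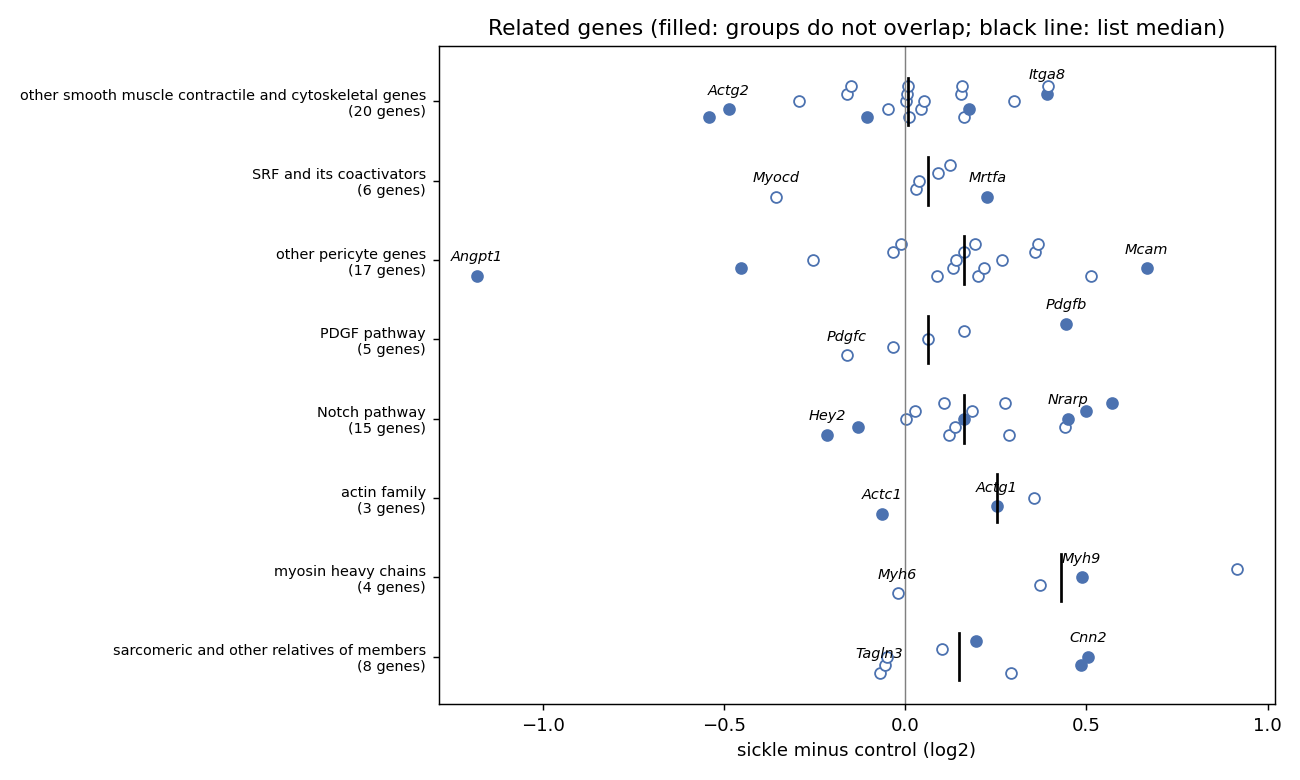
Sickle minus control difference on the log2 scale (x axis) of each gene in 8 lists of related genes (y axis); filled points are genes whose groups do not overlap, black lines are list medians, and the gene with the smallest p in each direction is named. Mcam and Pdgfb lie to the right, Angpt1 and Actg2 to the left, and the list medians lie between 0.01 and 0.43.

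Markers of other cell types also stood out in sickle replicate 3. The median of 10 fibroblast markers was 1.26 above the control mean there, against 0.02 and 0.11 in sickle replicates 1 and 2; 9 of the 10 were highest in that array. Activated fibroblast and matrix genes were higher there by a median of 3.14, against 0.08 and 0.05, with 9 of 9 at their highest. Macrophage genes were 1.39 higher, against 0.02 and 0.23, with 10 of 10 at their highest. The median level over each list ran, in control and in sickle, from 8.61 to 8.83 and 8.69 to 11.11 for fibroblasts, from 6.24 to 7.59 and 6.32 to 9.78 for activated fibroblasts, and from 7.44 to 7.65 and 7.63 to 8.81 for macrophages. Their part in the Acta2, Tagln, Pdgfrb and Notch3 values of that array was not tested.

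By name, Postn, a protein of activated fibroblasts, had 8.25 to 9.02 in control and 9.28, 9.64 and 12.40 in sickle replicates 1, 2 and 3. Cthrc1 had 5.20 to 5.30 in control and 5.59, 5.37 and 8.39 in sickle. Both were above control in every sickle array, and without sickle replicate 3 they differed by 0.87 and 0.23. Pdgfra and Dcn, which mark fibroblasts, had 9.70 and 12.51 in sickle replicate 3, against 8.83 to 9.07 and 11.99 to 12.23 in the others. The macrophage gene Csf1r had 7.75 to 7.90 in control and 8.12, 8.15 and 9.09 in sickle, again without overlap. Adgre1 had 6.46 to 6.87 in control and 6.76, 7.12 and 8.39 in sickle. Without sickle replicate 3 they differed by 0.31 and 0.27. Myh11 was not highest in sickle replicate 3: sickle replicates 1, 2 and 3 were 0.38, 0.23 and 0.24 above its control mean.

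Relative to control, cardiomyocyte markers had medians of 0.05, -0.0031 and -0.15 in sickle arrays 1, 2 and 3, with 4 of 10 means higher in sickle. Smtn was also at its lowest in sickle replicate 3, and the part of cardiomyocytes in its value was not tested. Endothelial markers had medians of 0.20, 0.03 and 0.06 in sickle replicates 1, 2 and 3, against -0.09 to 0.08 in control, with 7 of 10 higher. Pecam1 and Cdh5, junction proteins of endothelium, differed by 0.17 ± 0.11 and -0.07 ± 0.10 (SE), neither past the test, and by 0.09 and -0.12 without sickle replicate 3. Red cell genes were 1.64, 2.16 and 1.71 above control in the sickle arrays, with Slc4a1 differing by 3.31 ± 0.30 and Epb42 by 2.27 ± 0.29, or 3.01 and 2.17 without sickle replicate 3. The Schwann cell list had 3 of 5 genes measured, all 3 lower in sickle, with a median difference of -0.25.

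**Figure D4:**
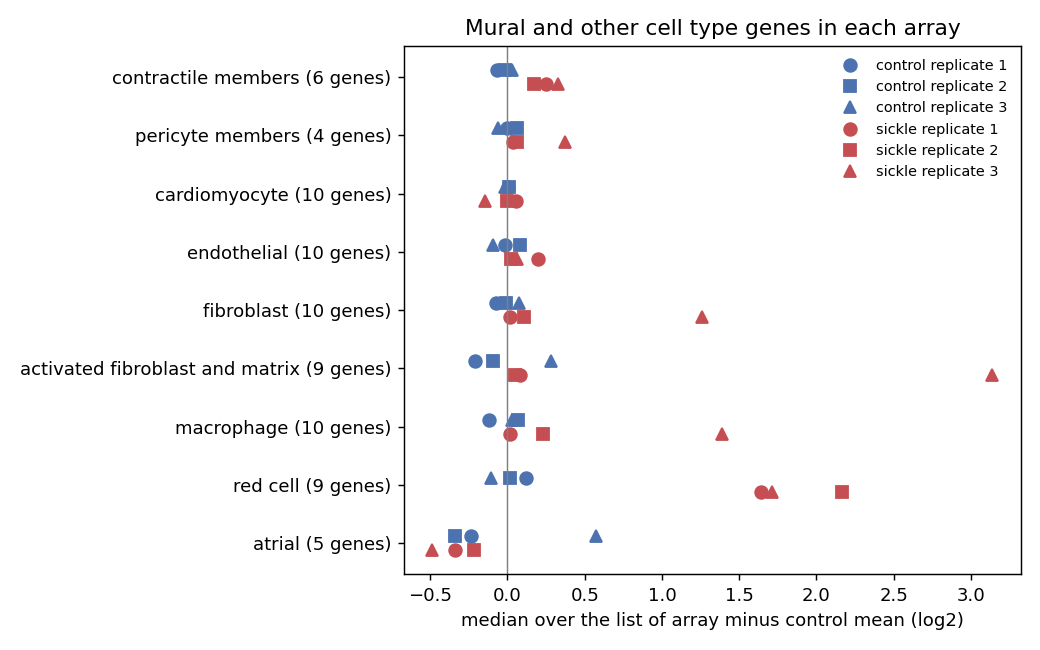
Median over each list of the array value minus the control mean on the log2 scale (x axis), for the 6 contractile and 4 pericyte genes and for 7 cell type marker lists (y axis); each symbol is an array. The median of the contractile genes lies at 0.17 to 0.33 in all 3 sickle arrays, though single genes differ. The medians of the pericyte, fibroblast, matrix and macrophage lists stand out in sickle replicate 3 (red triangle).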

How the data were processed

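The authors deposited log2 values made with RMA (background correction, quantile normalisation, probe summary), per the submitters' processing notes, which give no version; that the scale is log2 follows from their range. RMA settings, scan batches and detection calls were not used here. The deposited table held 25293 rows with array medians of 5.50 to 5.54. Platform annotation named 1 symbol for 22030 rows, several for 685 and no symbol for 2578. The brightest row stood for each of 465 genes with several rows, leaving 21506 genes and no filter on dim genes.

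Limma 3.58.1 (R 4.3.3; lmFit and eBayes, group as the only term, two-sided, with 4 residual and 3.61 prior degrees of freedom) tested sickle minus control, with Benjamini-Hochberg adjustment over all genes at 0.05. With 3 arrays per group, their number limits the precision. The fit was tested on simulated data before use.

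The members and lists were chosen with earlier results of these data known. All members were named, plus, from each pathway list, genes past the adjustment and the smallest p in each direction, and the first 2 genes of each marker list. For Schwann cells these 2 were not among the genes measured. Values of Klf4, Elk1, Acta1 and Myh7 were added outside this rule. Motifs were searched in the 250 bases upstream in the RefSeq promoter table. Alternatives were each array left out, a trended robust prior, the brighter genes only, median centring, a second quantile normalisation, the replicate number as a block, array weights and the mean over rows. Same-numbered arrays shared little over all genes: their deviations from group means correlated at 0.11, -0.05 and 0.05. These values cannot settle whether the mice were paired.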

Additional observations from a re-analysis of the deposited data

How the results depend on the processing

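The 10 genes stayed uncalled under each alternative tried (smallest adjusted p per alternative 0.285 to 0.780). All 10 means stayed higher in sickle, except that of Smtn without sickle replicate 2 (-0.047; range over single arrays left out -0.047 to 0.19). With 1 array left out, 9 to 10 means were higher, the median difference ran from 0.10 (without sickle replicate 3) to 0.33 (without sickle replicate 2), and 0 genes of the list were called. Counts in either direction were added after seeing the data. The groups did not overlap for 3 to 5 of the 10. Over all genes, in either direction, this held for 26.9% to 28.0% without a sickle array and 24.5% to 26.0% without a control array. An unadjusted p under 0.05 (limma) was reached by 1 to 4, and in either direction by 6.08% to 9.67% of all genes. It was reached by Myh11 alone without control replicate 1 and by Acta2 alone without sickle replicate 1. With sickle above alone and sickle replicate 3 left out, the shares of all genes were 13.5% for no overlap and 4.83% for p. The 39 genes called over all 21506 became 4 to 36: 13, 5 and 4 without control replicates 1, 2 and 3, and 36, 21 and 21 without sickle replicates 1, 2 and 3. The replicate block gave 12 calls over all genes and 0 of the 10. The cause was not tested. The values carry no detection call, so which dim genes lie above background is not known.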
